A study of Mus musculus with 14 samples.

Results

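The AGO2 groups described here are those whose sequence holds a site for miR-21, the most abundant miRNA of these macrophages. A group is a cluster of overlapping reads from AGO2 PAR-CLIP, an assay in which cells take up 4-thiouridine, RNA is crosslinked to AGO2, and crosslinked uridines are read as C. A group was a member when it held a 7mer-m8 match (complement of bases 2 to 8 of miR-21a-5p) or a 7mer-A1 match (complement of bases 2 to 7 followed by A) and was annotated to any class other than miRNA. The choice used sequence and annotation alone, not read counts. It found 254 of 66124 non-miRNA groups in the wild type library and 240 of 85118 in the knockout library, together 494 groups at 391 distinct loci. The tables list 66451 and 85458 groups when miRNA groups are counted.

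The cells were bone marrow derived macrophages of C57BL/6 mice, grown in medium with 20% L929 cell supernatant, per the labels for 6 days. Both genotypes carried the floxed Elavl1 allele. The libraries labelled knockout also carried LysM-Cre, a recombinase expressed from the Lyz2 gene, which is active in myeloid cells. There was 1 PAR-CLIP library per genotype, precipitated with an AGO2 antibody, so differences between the PAR-CLIP libraries have no replicate check and no test. Beside them stood 4 mRNA libraries per genotype and 4 small RNA libraries, numbered 1 and 2 for wild type and 3 and 4 for knockout. The labels do not tie libraries to separate animals, so p-values measure only the spread between these samples.

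miR-21 is made from a hairpin at the end of the Vmp1 gene and is induced in many activated and transformed cells. Loaded into AGO2, a miRNA pairs through its seed with sites that lie mostly in 3′ UTRs, and AGO2 then recruits TNRC6 proteins, which bring the deadenylation machinery and lower the stability and translation of the mRNA. ELAVL1 (HuR) is an RNA-binding protein of AU-rich and U-rich 3′ UTR sequence that is known to stabilise mRNAs and can compete or cooperate with miRNAs. In macrophages miR-21 is known for restraining inflammatory signalling, with Pdcd4 as its classical target.

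The miRNA is printed first, with its seed in capitals, followed by stretches of the groups on which the account turns, with the site in capitals. They show the strongest 3′ UTR sites of wild type (Map2k3, Fam63b, Fgd4, Cpeb3, Lats1 and Spg20) and the classical target (Pdcd4). Rasa1 and Itgav are printed as examples of strong sites that differ between the tables in reads or extent. The miRNA sequence is from RefSeq (table of build GRCm38.p6), the others are from the deposited group tables.
miR-21a-5p: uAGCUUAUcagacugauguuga
Map2k3: cacttacctacagccATAAGCTActgccat
Fam63b: caactccaatcagttagTAAGCTAttgtgt
Fgd4: aacctttttgATAAGCTAttccttaactgt
Cpeb3: aatctatATAAGCTAtaaaatactc
Lats1: cttccctcggacagtATAAGCTtctag
Spg20: attttcagcagATAAGCTAaacaaaactgt
Rasa1: cacctttgTAAGCTAtctg
Itgav: acattacactacagttgacttcATAAGCTA
Pdcd4: ATAAGCTActttctaag
Map2k3, Fgd4, Cpeb3, Spg20, Itgav and Pdcd4 hold the 8mer ATAAGCTA, which is both matches at once. Lats1 holds ATAAGCT without the final A, and Fam63b and Rasa1 hold TAAGCTA without the base that pairs with position 8. The same seed occurs in the reference table in 1 other mouse miRNA, miR-21c.

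In the mRNA libraries, Elavl1 was not lower in those labelled knockout: the wild type level was 63.5 ± 2.00 CPM and the knockout level 69.5 ± 6.13 CPM (SD over 4 libraries each), so these counts do not check the labels. Lyz2, the gene that carries the Cre, had ranges that do not overlap, 6770 to 10700 RPKM in the 4 wild type libraries and 2460 to 4300 RPKM in those labelled knockout (adjusted p = 1.0 by edgeR, 0.000472 with the library number as a block). The summed level of the 9 measured macrophage markers, among them Lyz2, was 8440 to 12200 RPKM against 4140 to 6040, and without Lyz2 the other 8 summed to 1490 to 1840 RPKM against 1680 to 1830, so that the gap lay in Lyz2. Summed markers of fibroblasts (0.337 to 5.32 and 0.2 to 7.74 RPKM), neutrophils (3.94 to 9.19 and 5.49 to 17.1 RPKM), lymphoid cells (0.241 to 0.918 and 0.55 to 1.67 RPKM) and endothelial cells (1.22 to 3.24 and 1.64 to 5.32 RPKM) were far lower, and their part in the results was not tested. In such bulk RNA, fewer cells of a type and less RNA per cell cannot be told apart. Total counts ran from 8160789 to 25030262 per mRNA library and from 6886110 to 10265453 per small RNA library. Libraries 1 and 2 of both genotypes deviated from their group means opposite to libraries 3 and 4 (correlations of -0.603 to -0.713 across the sets), so results on mRNA are also given within each set.

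miR-21a-5p itself dominated the small RNA. It took 46.7% and 45.6% of miRNA counts in wild type 1 and 2 (3671594 and 3143456 counts) and 50.5% and 45.6% in knockout 3 and 4 (3637553 and 4683057 counts). The next miRNA, let-7c-5p, took 9.72% in wild type 1. The genotypes overlapped: the log2 fold change of knockout over wild type was 0.15 with SE 0.17, adjusted p = 0.801 by edgeR's quasi-likelihood test, where 5.96% of the 369 miRNAs tested passed. Leaving out knockout 4 gave 0.294 with an adjusted p of 3.51e-09, leaving out knockout 3 gave -0.00434 with 0.987, and genotype and library number cannot be told apart in the small RNA. In AGO2 PAR-CLIP, the miR-21 hairpin was listed as a 3′ UTR group of Vmp1, at chr11:86397618-86397644 (mm9) in wild type with 193858 reads and with 365850 reads in knockout. It is the miRNA and not a site, and it is no member. This group held 7.44% and 13.9% of the reads of itself and the miRNA class together, below the share of miR-21a-5p in the small RNA.

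Sites were counted by annotation class. The 3′ UTR was the commonest class, with 120 groups in wild type and 108 in knockout, or 47.2% and 45.0% of the members, whereas 3′ UTR groups made up 33.4% and 20.5% of all non-miRNA groups. Intergenic members numbered 56 and 70, coding members 39 and 29, and intron members 35 and 30. The set is completed by 2 lincRNA groups in wild type and 1 in knockout, and by a single 5′ UTR group and a single mitochondrial tRNA group in each genotype. A site was held by 0.543% of 3′ UTR groups in wild type (exact 95% interval 0.45% to 0.649%) and 0.62% in knockout (0.509% to 0.748%). The share was lower in intergenic groups, 0.239% (0.181% to 0.311%) and 0.164% (0.128% to 0.207%), with intervals that do not reach those of the 3′ UTR. Coding groups held a site in 0.363% and 0.3%, and intron groups in 0.417% and 0.222%. These intervals cover counting error only. Group length also differed, with a median of 18 and 17 bases in other intergenic groups against 25 and 24 in other 3′ UTR groups. Among groups of 21 to 30 bases a site was held by 0.512% and 0.571% in 3′ UTRs and 0.498% and 0.532% in intergenic groups. For coding groups of that length it was 0.379% and 0.369%, and for introns 0.951% and 0.705%. At that length the 3′ UTR share was thus close to the intergenic share and below that of introns.

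**Figure D1:**
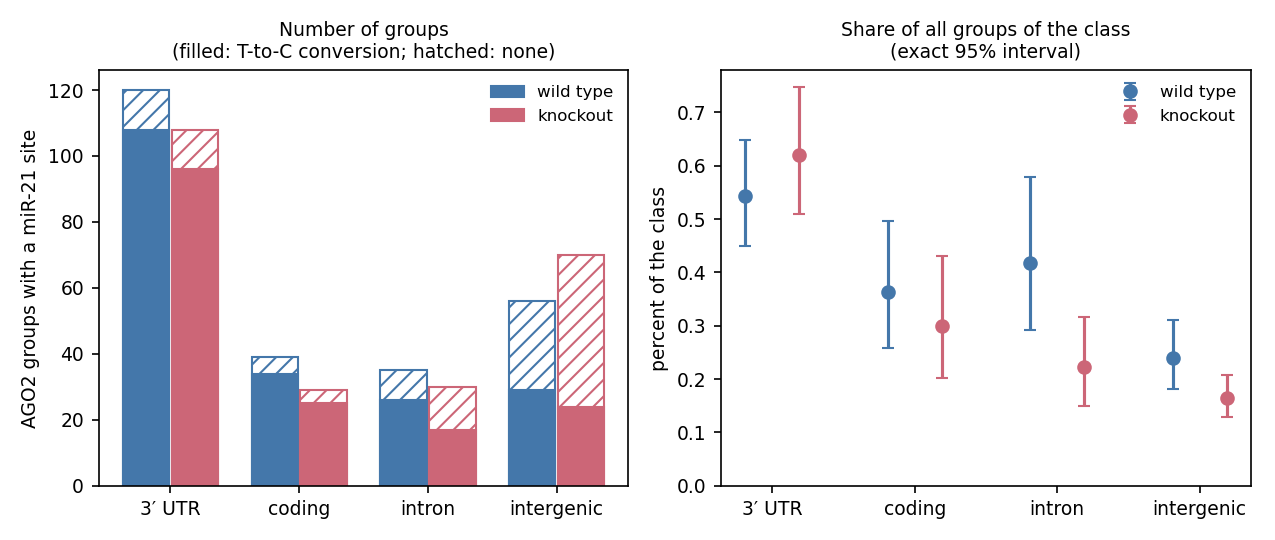
Left: number of AGO2 groups with a miR-21 site in each annotation class (bars) in wild type and knockout, the filled part with and the hatched part without a T-to-C conversion. Right: the share of all groups of the class that hold a site, with exact 95% intervals. Of the 4 classes drawn, the 3′ UTR has the most members (120 and 108) and the highest share (0.543% and 0.62%). Group length, which differs by class, is not taken into account.

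Conversion, the mark of crosslinking, was common among the members. At least 1 conversion location was listed for 79.1% of members in wild type (201 of 254, interval 73.6% to 84.0%) and 68.3% in knockout (164 of 240, 62.0% to 74.2%), against 58.8% and 39.8% of the other groups. The gap differed by class. In the 3′ UTR, 90.0% and 88.9% of members were converted, beside 86.8% and 81.6% of the other groups. Members there were slightly longer, with a median of 26 bases in both genotypes against 25 and 24. Among 3′ UTR groups of 21 to 30 bases the shares of members and others were 92.6% and 88.8% in wild type and 90.0% and 87.4% in knockout, and the members' intervals (84.6% to 97.2% and 80.5% to 95.9%) hold the others' values. Coding members were converted in 87.2% and 86.2%, beside 77.6% and 68.7% of other coding groups. The gap was wider in introns, with 74.3% and 56.7% of members beside 39.6% and 26.4% of others. Intergenic members were converted in 51.8% and 34.3%, and other intergenic groups in 31.5% and 20.9%. Taken over all classes, members were longer, with medians of 25 and 24 bases against 21 and 18. At 21 to 30 bases intergenic members and others were converted in 76.2% and 75.4% in wild type and 72.2% and 71.3% in knockout. For introns these shares were 84.6% and 72.0%, then 86.7% and 72.7%, and for coding groups 86.2% and 83.6%, then 95.5% and 82.9%. At this length the members' intervals hold the others' values in each class.

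All 3 site types occurred in number, the 8mer least often. Among 3′ UTR members the wild type table held 27 8mers, 41 7mer-m8 and 52 7mer-A1 sites, and knockout had 28, 42 and 38 of them. Median reads were 28, 32 and 22.5 in wild type and 33, 28.5 and 24 in knockout, in the same order of types. Of the 3′ UTR members with at least 100 reads, 8mers were 5 of 11 in wild type and 7 of 14 in knockout. No group held 2 sites.

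By reads, 3′ UTR members stood somewhat above other 3′ UTR groups, with a median of 26 reads against 17 in wild type and 28 against 19 in knockout. Length moved with this: at 21 to 30 bases the medians were 23 and 17 in wild type and 21 and 20 in knockout. Summed, the 3′ UTR members had 6260 reads in the wild type table and 6544 in the other, 0.399% and 0.573% of the 3′ UTR group reads without the miR-21 hairpin. Members of all classes held 6.06% and 2.05% of non-miRNA group reads, but nearly all of these lay in 1 group. It is annotated intergenic at chr17:39984964-39985155, had 222028 reads in wild type and 73350 in knockout, and spanned 192 and 237 bases with 31 and 29 conversion locations. Conversion events numbered 62270 and 18461, well under its reads. Its length and reads set it apart from the other members, no ribosomal RNA sequence was used here, and whether it stems from such abundant RNA was not tested. Without it the shares were 0.358% and 0.304%.

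The sequence word was set beside its reverse complement, counted in the same groups as the same word on the opposite strand. In converted 3′ UTR groups the site occurred at 20.8 per 100 kb of group sequence in wild type (interval 17.1 to 25.1) and the opposite word at 8.47 (6.15 to 11.4), a ratio of 2.45. In knockout the values were 26.1 (21.1 to 31.8) and 8.69 (5.94 to 12.3), a ratio of 3.0. In converted coding groups the ratios were 2.62 and 2.5. In converted intron groups of wild type 26 sites stood beside 1 opposite word, and in knockout 17 beside 5. In converted intergenic groups the ratios were lower, 1.53 and 1.85, with intervals of site and opposite word that overlap in both genotypes. For converted coding and intron groups these intervals also overlap in knockout, but not in wild type. Intergenic groups without conversion had ratios of 3.38 and 1.7. Over all classes the ratios were 2.54 and 2.73 in converted groups and 2.94 and 2.0 in those without conversion. The opposite word has the same AT content but not the same neighbours, so it is a rough background.

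Other seed families were counted in the same way, for the 19 of 24 listed families that the RefSeq table holds. Those missing were all families of other tissues, of which only miR-9, miR-208a and miR-216a remained. By miRNA counts in the small RNA libraries miR-21 ranked first, with a mean of 46.2% in wild type and 48.0% in knockout. In the AGO2 libraries its own group held 7.44% and 13.9% of miRNA reads. By the share of converted 3′ UTR groups that hold a site miR-21 ranked 15 of 19 in wild type and 14 of 19 in knockout. The shares were 0.562% (interval 0.462% to 0.679%) and 0.675% (0.547% to 0.824%). Among the macrophage families only miR-155 ranked lower in wild type, and only miR-146 and miR-155 in knockout. The miR-27 family, with 1.77% and 1.71% of counts, had sites in 3.27% and 3.59% of those groups. The let-7 family, second by counts with 22.2% and 21.1%, had sites in 1.4% and 1.43%. Families of other tissues lay lower: miR-9, at 9.44e-05% and 0.000279% of counts, had 0.182% and 0.162%. The site-to-opposite ratio for miR-21 (2.45 and 3.0) was also below that of miR-27 (17.4 and 20.4) and let-7 (20.7 and 22.6), and close to that of miR-22 (2.41 and 2.27). Words differ in base composition and in how often they occur in 3′ UTRs, so these ranks describe groups and are not corrected for it.

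**Figure D2:**
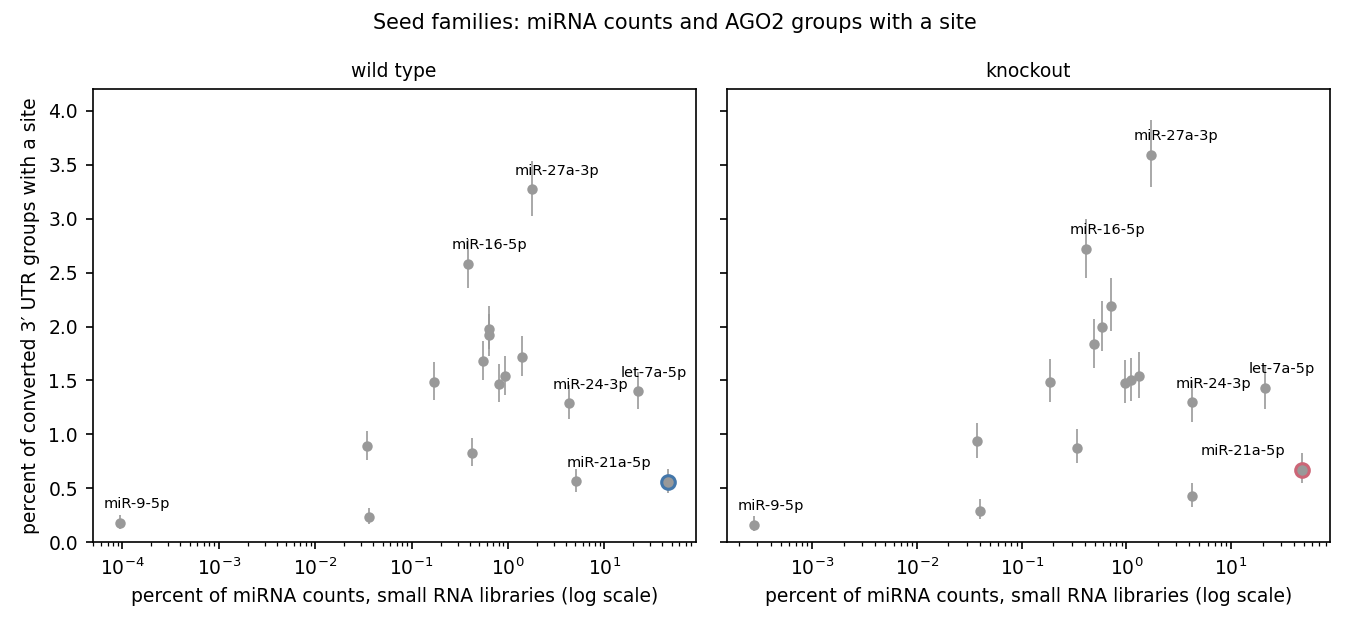
Each point is a seed family, with its share of miRNA counts (x axis, log scale, mean of 2 small RNA libraries) against the percent of converted 3′ UTR AGO2 groups that hold a site (y axis, bars are exact 95% intervals), for wild type and knockout. Families with no counts are not drawn. miR-21a-5p, the point with a coloured rim, has the highest count share (46.2% and 48.0%) and a site share of 0.562% and 0.675%, while miR-27a-3p reaches 3.27% and 3.59%.

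Few miR-21 groups held a site for another of the 15 macrophage families. This was so for 9 of 108 converted 3′ UTR members in wild type and 8 of 96 in knockout, 8.33% in both, beside 22.0% and 22.9% of the other converted 3′ UTR groups. Members were chosen for a site, so theirs is a further site, while in the other groups any site counts. The shares are thus not of like kind, and further sites in groups of other families were not counted. The Spg20 group of wild type held sites for miR-27 and miR-146, the Cd99l2 groups a site for miR-27, and the Itgav group of knockout a site for miR-142-3p.

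The site lay near the 3′ end of the group. In converted 3′ UTR members a median of 5 bases followed it in wild type and 5.5 in knockout, after a median of 12 and 13 bases before it. At most 10 bases followed in 72.2% and 74.0%. Over the 15 other macrophage families the medians of following bases ran from 4 to 8, so this position is shared with them. The last base was G in 87.0% of the members in wild type and 83.3% in knockout, and in 79.8% and 78.1% of other converted 3′ UTR groups. Outside the site the sequence was 67.2% and 67.0% A or T, against 62.1% and 61.9% for the other groups.

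**Figure D3:**
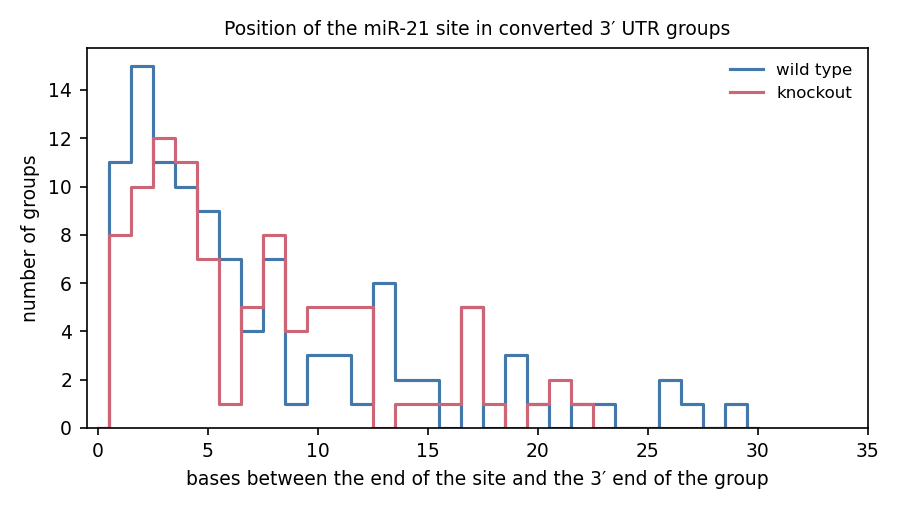
Number of converted 3′ UTR groups (y axis) by the number of bases between the end of the miR-21 site and the 3′ end of the group (x axis), for wild type (n = 108) and knockout (n = 96). The few groups with more than 30 bases are not drawn. Most groups of both genotypes have at most 10 bases after the site (72.2% and 74.0%).

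Map2k3, Fam63b and Fgd4 held the 3 strongest 3′ UTR sites of wild type and were among the 5 strongest of knockout. Map2k3, a kinase that activates p38 MAPK, had its group at chr11:60765406-60765445 with 515 reads in wild type and 607 in knockout. Fam63b (Mindy2), a deubiquitinase, had 534 and 391 reads at chr9:70452667-70452710. Fgd4, an exchange factor for the GTPase CDC42, had 382 and 346 at chr16:16422413-16422447. All 3 had similar reads in the tables. Cpeb3, a protein that controls translation through the poly(A) tail, had 372 and 174 reads at chr19:37098380-37098404. Lats1, a kinase of the Hippo pathway, had 207 and 265 at chr10:7435262-7435288 in wild type. Spg20 (spartin) had 157 and 97 at chr3:54940045-54940095 in wild type. The other wild type leaders were 2310035C23Rik with 143 reads, Setd1b with 142, Tgfbi with 120 and Cd99l2 with 112. All 10 had an overlapping group in knockout, though in 2310035C23Rik and Setd1b that group lacked the site.

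The leaders of the knockout table also included Itgav, Rasa1, Gpnmb, Zfp60 (146 reads, 91 in wild type) and Plxna2 (133 and 83), the last level with Tgfbi (133). Itgav, the integrin alpha V chain, had 485 reads at chr2:83643915-83643961, and the overlapping wild type group had 726 reads but ended inside the site, after which the knockout group ran on for 1 base. Rasa1, a GTPase activator that turns off RAS, had 97 reads in wild type and 396 in knockout at chr13:85355508-85355526, the same 19 bases in both. Gpnmb, a membrane glycoprotein of macrophages and osteoclasts, had 182 reads in knockout, over a locus with 113 in wild type. At Itgav the site thus entered or left the list by the edge of a group alone. In all, 8 wild type and 14 knockout members overlapped a group of the other genotype that lacked the site.

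For many genes the miR-21 group was a small part of the AGO2 signal on the 3′ UTR. Over the 107 genes with a converted 3′ UTR member in wild type it took a median of 27.7% of the gene's 3′ UTR group reads (quartiles 4.72% and 59.2%), and over 95 genes in knockout 29.4% (9.71% and 59.5%). On Map2k3 it took 85.4% and 96.7%, on Cpeb3 72.1% and 59.2%, and on Lats1 47.7% and 67.8%. On Rasa1 it took 3.38% and 20.2%. Map2k3, Cpeb3 and Lats1 thus had a large part of their listed AGO2 reads at the miR-21 site, Rasa1 a small one. In 10 genes of wild type and 13 of knockout no other 3′ UTR group was listed.

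Outside 3′ UTRs, the converted members with most reads in coding sequence of wild type were in Glt8d1 (152 reads, 73 in knockout), Rasgef1b (96 and 151) and Fnip2 (86 and 143). In knockout S100a1 led with 362 reads, over a wild type group with 290 that lacked the site, followed by Rasgef1b and Fnip2. In introns, Wdr70 had 195 and 139 reads, 2500003M10Rik 70 and 15, and Opa1, a protein of mitochondrial fusion, 45 and 33. Pde7b, with 21 reads in knockout, had no wild type group. Both lincRNA groups of wild type, with 39 and 37 reads, had none in knockout. The 5′ UTR group of both genotypes was in Suv420h1, a histone methyltransferase, with 36 and 76 reads. The mitochondrial tRNA group had 1878 and 1500 reads with 48 and 73 conversion events, far fewer than its reads. Among intergenic members, the group at chr17:84584570-84584628 had 1175 reads in wild type and 686 in knockout, and that at chr19:41637273-41637323 had 465 in wild type and 13, without the site, in knockout. The knockout table had the group at chr8:3754523-3754556 with 410 reads (272 in wild type) and that at chr3:39925354-39925371 with 172 (34). The strongest intergenic members with no conversion were short: those at chr6:60270073-60270088 (80 and 236 reads) and chr16:62100345-62100360 (51 and 137) spanned 16 bases in wild type. Among 3′ UTR members with no conversion, Mkln1 had most reads in wild type (32) and Pnrc2 in knockout (55).

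Overlap between the genotypes, on the same strand by at least 1 base, was found for 43.7% of wild type members (111 of 254, interval 37.5% to 50%) and 48.8% of knockout members (117 of 240, 42.3% to 55.3%). The other groups overlapped in 40.7% and 31.7%. In converted 3′ UTR groups the shares were 53.7% of members and 43.3% of others in wild type, and 62.5% and 56.6% in knockout. The share rose with reads. Of members with at least 100 reads, 18 of 18 in wild type and 28 of 28 in knockout were overlapped, as were 97.2% and 98.4% of other groups of that strength. Of members with at least 20 reads, 63.3% and 70.7% were overlapped, beside 66.4% and 65.0% of others. Under 20 reads the shares were 23.8% of members and 28.3% of others in wild type, and 28.2% and 16.8% in knockout. In converted 3′ UTR groups of at least 20 reads, members and others lay close, at 71.4% and 64.4% in wild type and 75.8% and 71.7% in knockout, with members' intervals (59.4% to 81.6% and 63.3% to 85.8%) that hold the others' values. When the partner also had to hold a site, 103 members of each genotype were shared, 40.6% of the wild type and 42.9% of the knockout list.

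At the level of genes, 107 had a converted 3′ UTR member in wild type and 95 in knockout, and 52 in both, which is 48.6% and 54.7% of the lists. Of all genes with a converted 3′ UTR group of any sequence, 4239 were in both tables, 74.9% of 5657 in wild type and 84.9% of 4991 in knockout. Such genes often have several groups, so the shares are not of like kind. The strongest converted 3′ UTR members with no overlapping group in knockout were in Eif5a2 (72 reads), Uso1 (52), Ppp2r5e (51), the chemokine gene Ccl3 (50) and Eif2s1 (49). In knockout those with no overlapping wild type group were in the chromatin remodeller Chd7 (54), Zdhhc21 (51), Bahd1 (43), Fnbp1l (41), and Zfp191 and Rg9mtd2 (38 each). Since a group is listed only from 5 reads on, and members under 20 reads were mostly not overlapped, a site listed in 1 table alone is not shown to be absent in the other at this depth.

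Strong shared loci were strong in both tables. At the 103 loci with a site in both, log10 reads correlated with Spearman's rho of 0.751 and Pearson's r of 0.864, as a description across loci of 2 libraries. Over all 26731 shared loci the values were 0.592 and 0.705. Shared 3′ UTR loci with a site in either table numbered 69. Of them 18 (26.1%) were at least 2-fold higher in knockout and 7 (10.1%) as much lower, relative to the median shared 3′ UTR locus. Of all 8853 shared 3′ UTR loci, 19.0% were as much higher and 17.0% as much lower. Among the higher ones with a site, Skp2, Zdhhc21, Stag2, Eif2ak4, Peli1 and Gng2 held it in 1 table alone. Each of the lower ones held it in both. Loci could thus enter through the table where they were strong, and no conclusion is drawn from the excess of higher loci. Over all classes, relative to the median shared locus, 17 of 125 loci with a site in either table were 2-fold higher and 27 lower. With a site in both tables it was 14 and 22 of 103. Of all 26731 loci, 22.2% were higher and 22.2% lower. The median log2 ratio of knockout over wild type was -0.256 for the 125 loci relative to the median shared locus, and 0.226 for the 69 3′ UTR loci relative to the median shared 3′ UTR locus. Skp2 (9 reads in wild type, 86 in knockout), Pnrc2 (11 and 55), Zdhhc21 (8 and 38) and Rasa1 (97 and 396) were the 3′ UTR loci most strongly higher in knockout. Tpcn1 (100 and 21) and Glyr1 (96 and 29) were those most strongly lower. The wild type reads of Skp2, Pnrc2 and Zdhhc21 stood near the minimum of 5, and Skp2 and Zdhhc21 held the site in 1 table alone. The genes named here were chosen after their values were seen.

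**Figure D4:**
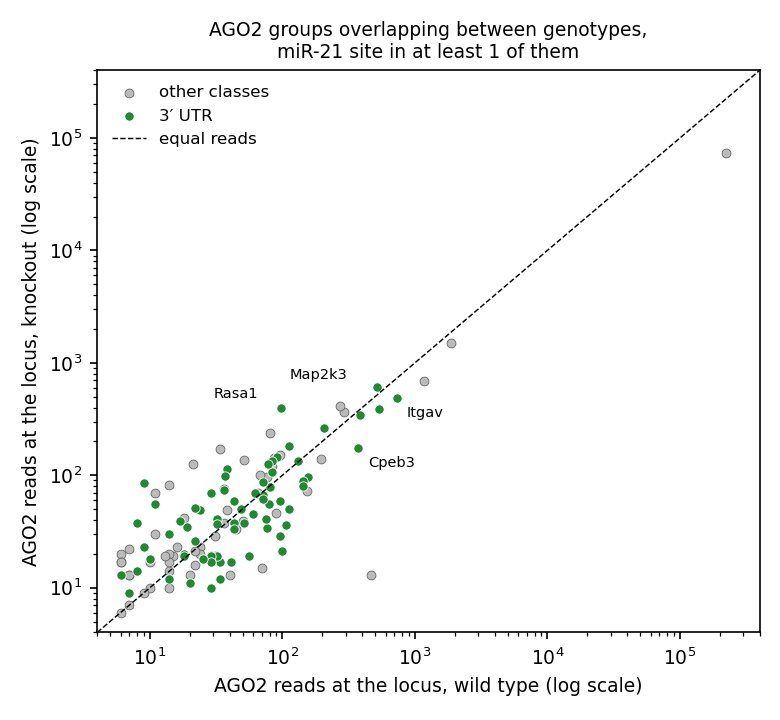
AGO2 reads in wild type (x axis) and knockout (y axis), both on log scales, at the 125 loci where groups of the genotypes overlap and at least 1 holds a miR-21 site; green points are 3′ UTR loci, and the dashed line marks equal reads. Map2k3 (515 and 607 reads) lies near the line, Rasa1 (97 and 396) above it and Cpeb3 (372 and 174) below it.

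A fixed list of 50 genes, most of them reported targets of miR-21, was set against the members. Of these, 40 had a 3′ UTR AGO2 group in either genotype and 13 had a member: 9 in wild type, 10 in knockout and 6 in both. Those in both were Cpeb3, Klf6 (29 and 70 reads), Map2k3, Pik3r1 (19 and 35), Rasa1 and Spg20. Hbp1 (27 reads), Itgb8 (13) and Pdcd4 (6) had one in wild type alone, and Jag1 (26), Peli1 (39), Ski (11) and Skp2 (86) in knockout alone. At Peli1 and Skp2 a wild type group (17 and 9 reads) overlapped the knockout one but lacked the site. Pdcd4, an inhibitor of translation initiation, thus had a weak group, at chr19:54003922-54003938, with no conversion and 7.14% of the gene's 3′ UTR group reads. The other 27 genes with a 3′ UTR group, among them Spry2, Btg2, Rhob, Tgfbr2 and Smad7, had it without a miR-21 site. Sites of such genes that lie outside the listed groups were not examined.

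Of the 14 genes of miRNA biogenesis and silencing, 7 had a 3′ UTR AGO2 group and 1, Tnrc6b, a scaffold of the silencing complex, had a 3′ UTR member (20 and 11 reads). Its relative Tnrc6c had a coding member in wild type (36 reads), over a knockout group of 38 reads that lacked the site. Of the 12 inducers of the miR-21 gene, 10 had a 3′ UTR group and 1, Stat3, a transcription factor of cytokine signalling, had a member (76 and 34 reads). None of the 14 and none of the 11 tested inducers passed the test on mRNA, where 0 of all 14019 genes did. Their medians were 0.025 and 0.07 on the log2 scale. By edgeR with the block, 1 gene of each list had an unadjusted p under 0.05, where 9.42% of all genes had. The host gene Vmp1 had a log2 fold change of -0.20 with SE 0.17.

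Genes with sites were expressed at ordinary levels. Of 167 genes with a 3′ UTR member, 166 were matched to the mRNA files. The 148 tested genes with a converted one had a median of 5.57 RPKM in wild type (library medians 4.36 to 7.78), against 7.81 RPKM for the 6023 other genes with a converted 3′ UTR group and 3.84 RPKM for the 7848 genes without one. AGO2 reads at the site did not follow the mRNA level, with Spearman's rho of 0.0526 over 106 genes in wild type and 0.119 over 94 in knockout, as a description across genes. Gpnmb, at 2960 RPKM, had 12 and 182 reads in groups with the site, where the locus had 113 in wild type. Cpeb3, at 1.02 RPKM, had 372 and 174. Reads of a group cannot tell more mRNA from more binding per mRNA.

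On mRNA, no gene with a converted 3′ UTR member passed the test between genotypes. By edgeR 0 of the 148 were called at an adjusted p under 0.05 and 0 had an unadjusted p under 0.05, where 0 of all 14019 genes (0.0%) were called and 81 had an unadjusted p under 0.05. DESeq2 also called 0 of 148, where it called 0.0214% of genes. The median log2 fold change of the 148 was -0.0306, with 60 higher (40.5%) and 88 lower. That of all genes tested was -0.00169, with 49.6% higher. For the 6171 tested genes with a converted 3′ UTR group of any sequence it was -0.00763, with 47.9% higher. The median of the 148 in each numbered pair of libraries was -0.0319, 0.0424, -0.144 and 0.0413. The 8mer genes (34) had a median of -0.0415, those with sites in both genotypes (51) -0.0271, in wild type alone (52) -0.0302 and in knockout alone (41) -0.0543. Differences among these sets were not tested. Within libraries 1 and 2 the median of 146 was -0.00162, and within 3 and 4 that of 148 was -0.0613, with 0 called in either, where 0.0975% of all genes were called in libraries 3 and 4. Without wild type 2 the median of the 148 was -0.133, without wild type 3 it was 0.0537 and without knockout 2 it was 0.02, so its sign depends on single libraries. The medians of the pairs differ among themselves (SD 0.0879) by more than the median of the 148 differs from that of all genes.

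Fitting the replicate number as a block left 0 of the 148 called, where 0.0357% of all genes were, and 17 (11.5%) had an unadjusted p under 0.05, as had 9.42% of all genes. DESeq2 with that block, an alternative added after the data were seen, called 2 of the 148, where 0.585% of all genes were called. These were Tgfbi, an extracellular matrix protein of macrophages, and Jag1, a ligand of Notch. Tgfbi stood at 81.3, 174, 106 and 120 CPM in wild type 1 to 4 and 107, 174, 193 and 197 CPM in knockout 1 to 4. The log2 fold change was 0.48 with SE 0.27 (adjusted p = 1.0 by edgeR, 0.215 with the block, 0.0213 by DESeq2 with the block). The genotypes overlap, and the difference was 0.14 within libraries 1 and 2 and 0.78 within 3 and 4. Jag1 stood at 8.99, 20.5, 28.6 and 36 CPM in wild type and 6.37, 10.5, 23.3 and 21.5 CPM in knockout. It was lower in the knockout library of each number, by -0.60 on the log2 scale with SE 0.49 (adjusted p = 1.0 by edgeR, 0.126 with the block, 0.0144 by DESeq2 with the block), though the groups overlap. Jag1 is a reported target with a member in knockout alone, of 26 reads.

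The mRNAs of the strongest sites had overlapping levels in the genotypes. Map2k3 was at 54.5, 67.0, 55.3 and 61.6 CPM in wild type and 63.1, 61.9, 57.4 and 59.3 CPM in knockout. That is nearly level, a log2 fold change of 0.02 with SE 0.13 (adjusted p = 1.0 by edgeR). Fam63b was at 61.9, 49.4, 108 and 81.8 CPM against 57.1, 48.6, 81.4 and 88.2 CPM. Fgd4 was at 38.5, 25.9, 93.9 and 81.3 CPM against 31, 27.9, 79.1 and 83.0 CPM. In both genes the libraries followed their number set more than their genotype, and the fold changes were -0.13 and -0.12 on the log2 scale. Cpeb3 was at 10.4, 12.2, 16.2 and 15.1 CPM against 9.04, 10, 16.0 and 14.3 CPM, a fold change of -0.12. Itgav was at 63.0, 49.0, 97.6 and 90.8 CPM against 61.8, 48.8, 89.8 and 84.6 CPM, a fold change of -0.08. Both were lower in the knockout library of each number, by far less than the spread between numbers. Rasa1, whose AGO2 reads were 97 and 396, was at 41.2, 38.8, 90.6 and 59.7 CPM against 46.1, 38.8, 59.8 and 62.0 CPM, a fold change of -0.16 with SE 0.29. Pdcd4 was at 8.65, 18.4, 16.3 and 13.4 CPM against 11.7, 18.6, 14.1 and 15.5 CPM, a fold change of 0.08.

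**Figure D5:**
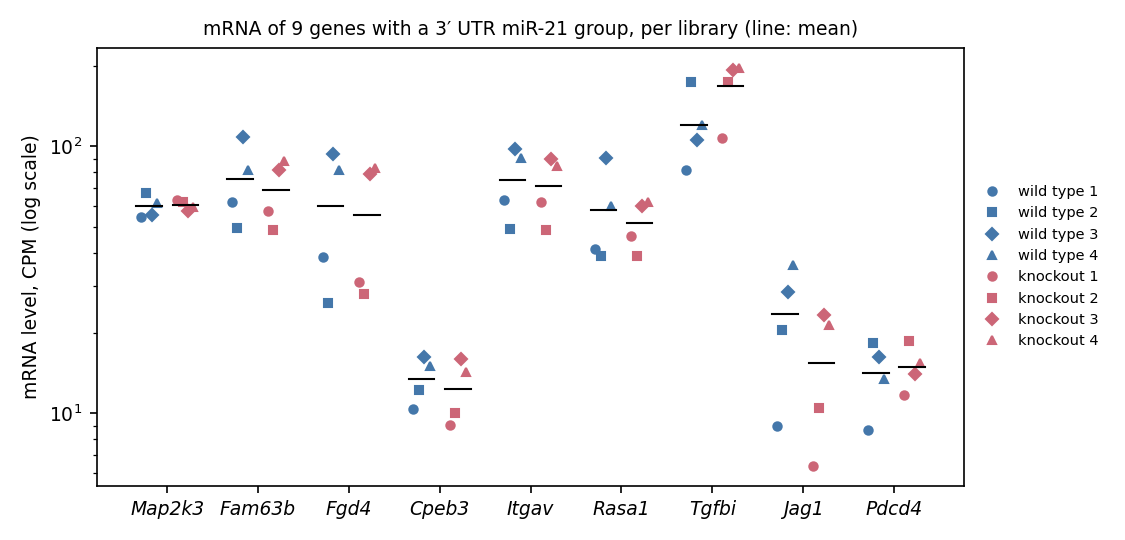
mRNA level in CPM (y axis, log scale) of 9 genes with a 3′ UTR miR-21 group, in each wild type and knockout library (symbols, by library number) with the mean of 4 libraries (line). The genotypes overlap for each gene, and for Fgd4 libraries 1 and 2 (25.9 to 38.5 CPM) lie below libraries 3 and 4 (79.1 to 93.9 CPM) in both.

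Of the 50 listed targets, 44 were tested on mRNA: 25 were higher and 19 lower in knockout, with a median log2 fold change of 0.015, and none was called by edgeR, with or without the block (7 of the 44 had an unadjusted p under 0.05 with it, where 9.42% of all genes had). Most of these targets had no listed AGO2 group with a miR-21 site.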

How the data were processed

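The authors deposited, per the file headers, read counts and RPKM per Ensembl gene for each mRNA library, counts of 485 mature miRNAs for each small RNA library, and 1 table of AGO2 groups per PAR-CLIP library, with position, strand, sequence, read count, conversion locations and events, class and gene. Each group has at least 5 reads. Per the submitters' processing notes, the tools included CASAVA 1.8.2 and Bowtie 0.12.7, with build mm9. How genes were counted, whether strand was used, and how groups were called is not given in the sources used here. Positions are as deposited, and whether they count from 0 or 1 was not settled. The culture time is 6 days per the labels' protocols, and another text of the series differs.

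The members and gene lists were chosen with earlier results of these data known. Site words came from the RefSeq miR-21a-5p sequence. Old gene names were matched through RefSeq synonyms, and 19328 of 21444 Ensembl identifiers had a symbol. The small RNA name miR-142-3p was taken as miR-142a-3p, and families were summed over the miRNAs with a sequence in the RefSeq table. Overlaps were found with bedtools 2.31.1. Counts were tested with edgeR 4.0.16 (R 4.3.3): TMM scaling, filterByExpr, genotype alone, Benjamini-Hochberg adjusted p under 0.05. DESeq2 1.42.0 was the alternative. CPM are TMM-scaled. RPKM deposited by the authors served only to set levels of different genes side by side. The script was tested on simulated counts. Intervals are exact at 95% (Clopper-Pearson for shares, Poisson for densities) and cover counting error only, since the files record no molecular identifiers.

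Deviations from the group mean correlated at 0.77, 0.81, 0.745 and 0.801 between libraries of equal number, all above 0.1, so the number was also fitted as a block. They correlated as highly across numbers 3 and 4 (0.832 and 0.764). Named genes were the converted members with most reads (10 per genotype in 3′ UTRs, 3 in each other class), listed targets with a member, genes with a 3′ UTR member passing the threshold in any fit, the strongest unconverted members, and the 5 strongest converted 3′ UTR members of each genotype without a partner. Of these, mRNA values are given for 9. The knockout 4 small RNA file names knockout 2 over some columns, and was taken as its record labels it.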

Additional observations from a re-analysis of the deposited data

How the results depend on the processing

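The number of members depends on the rule. In wild type (254) it was 59 with 8mers alone, 158 with 7mer-m8, 155 with 7mer-A1, 511 with the 6mer, 128 with at least 20 reads, 120 in 3′ UTRs and 97 for words on the opposite strand. In knockout (240) it was 52 with 8mers alone, 130 with 7mer-A1, 493 with the 6mer, 116 with at least 20 reads, 108 in 3′ UTRs and 98 on the opposite strand. The overlapped share rose to 63.3% and 70.7% at 20 reads or more (other groups 66.4% and 65.0%). The converted share was 84.3% and 75.6% at 10 reads or more and 90.0% and 88.9% in 3′ UTRs. The median log2 ratio of AGO2 reads at shared loci (-0.256) was -0.00243 scaled by all non-miRNA reads, 0.564 scaled by 3′ UTR reads. Such factors move other loci alike (0.253 and 0.82), so over all classes the members stayed below them. The 0.226 is of the 3′ UTR loci among them, which lay above other 3′ UTR loci. Some of these loci held the site in 1 table alone. Since a factor moves members and others alike, their gap is fixed across scalings, which are no further check on it. There the medians were -0.0764 against -0.302 by all non-miRNA reads and 0.49 against 0.265 by 3′ UTR reads. The direction against other loci thus depends on whether class is taken into account. Without the largest group the members' share of reads was 0.358% and 0.304%. The choices of scaling and of that group were made after the data were seen.

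On mRNA, the replicate block changed no call among the 148 genes (0 called, median -0.0279), and DESeq2 with the block called 2. Leaving out 1 library kept 0 called, with medians from -0.133 (without wild type 2) to 0.0537. For miR-21a-5p it gave -0.00434 to 0.294, and only the fit without knockout 4 passed the threshold. The remaining knockout library is then assumed to vary like the wild type pair. The log2 fold changes of named genes, none called by edgeR, ranged on leaving out 1 library from -0.02 to 0.08 in Map2k3, -0.28 to 0.10 in Fam63b, -0.38 to 0.19 in Fgd4, -0.23 to 0.08 in Itgav, -0.30 to 0.15 in Rasa1 and -0.09 to 0.23 in Pdcd4, and kept their sign in Cpeb3, Tgfbi and Jag1. Libraries 3 and 4 alone gave -0.01 in Map2k3 and -0.01 in Pdcd4, and libraries 1 and 2 alone 0.08 in Rasa1. The cause was not tested. Depth limits the weak groups, whose overlap between the tables is low.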
